A study of Mus musculus with 2 samples.

Results

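The autophagy machinery was followed through 38 listed mouse genes, from the kinase complex that starts an autophagosome to the lysosomal membrane proteins that end its life, of 32285 genes counted in all. The members were taken by name, and all 38 were found in both libraries and passed the filter on low counts that left 14535 genes tested. The cells were total thymic stroma, the CD45- fraction left after magnetic removal of blood cells, from mice of the genotype E2F_M11, in which CRISPR-Cas9 removed 2 E2F binding sites from the proximal promoter of Foxn1. Foxn1 is the master regulator of thymic epithelium, so every cell described here carries the promoter deletion. There were 2 libraries of this genotype, made with a droplet kit that tags the 3' end of each RNA molecule with a unique molecular identifier (UMI), and wild-type stroma was not analysed here. The labels name no age and do not say whether the libraries came from separate mice or pools, so the spread between them, and the p-values that rest on it, may be technical. The comparisons below are therefore between cell classes of this 1 genotype, and none of them measures the effect of the deletion.

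Autophagy encloses cytoplasm in a double membrane and delivers it to the lysosome. A kinase complex around ULK1 starts the membrane, a lipid kinase around VPS34 (Pik3c3) marks it, and conjugation enzymes couple LC3 and GABARAP proteins to it, which cargo receptors such as p62 (Sqstm1) then bind. Thymic epithelium is known for constitutive autophagy without starvation, above all in the cortex, where autophagy has been linked to the loading of self peptides on MHC class II for the selection of thymocytes. RNA levels do not measure autophagic flux, and the values below are levels of RNA only.

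Library 1 held 5110 barcodes and 41075328 UMIs, and library 2 held 19163 barcodes and 42583831 UMIs, so library 2 was the shallower per cell. After the cell filter 3588 and 8186 cells remained, with medians of 8727 and 1874 UMIs, and the libraries shared 30 barcodes. Marker gates placed 2750 and 2655 of these cells in 6 classes. The cortical class held 124 cells in library 1 and 154 in library 2, the Ccl21a-high medullary class 378 and 250, the Aire-expressing medullary class 206 and 136, the mimetic class 140 and 190, the fibroblasts 1818 and 1867 and the endothelium 84 and 58. A gate on a per-cell score cuts a range: 33 and 23 of the Aire-expressing cells lay within 1.5 times their threshold. As the gates require, the cortical, Ccl21a-high, Aire, fibroblast and endothelial lists were highest in their own classes, with cortical markers at 16109 and 13106 CPM (UMIs of a list or gene per 1000000 UMIs) in the cortical class against at most 822 in any other. The exception was the cortical class itself, in which the Aire-expressing marker list reached 610 and 1005 CPM, below the 1619 and 1517 of the Aire-expressing class but above the 90.5 and 55.5 of the Ccl21a-high class. Cells at the Aire-list threshold made up 43 and 31 of the cortical cells, and cortical results are also given without them. In library 2 they weigh more in the sum than their number implies, while in library 1 their weight is close to their share of the cells. Without them 1859802 of 2852942 cortical UMIs remained in library 1 and 390994 of 856865 in library 2.

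Levels of single genes are CPM of a class in a library, scaled by the trimmed mean of M-values (TMM). Since 3' tags count molecules, CPM is not divided by gene length. Differences are log2 fold changes from edgeR's quasi-likelihood test on the 12 sums (6 classes in 2 libraries), with Benjamini-Hochberg adjusted p-values over all genes tested. Their standard errors (SE) were derived from that test, as the absolute log2 fold change divided by the square root of its F statistic. A gene is called at an adjusted p at or under 0.05.

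The promoters of 4 members are shown first. Lamp2 and Lamp1 encode lysosomal membrane proteins and peaked in different classes, and Wipi1 peaked in Aire-expressing cells. Atg14 was chosen for its sequence, which holds both kinds of motif searched. Both kinds also occurred for Atg7, which is not printed. RefSeq (GRCm38.p6) gave windows from 250 bases before to 50 after the start for 32 of the 38 members, and none for Atg12, Atg16l1, Becn1, Pik3c3, Rb1cc1 and Map1lc3a. Each sequence runs 5' to 3' on the gene's own strand from 250 bases before the start to 30 after it, with matches in capitals.
Lamp1, chr8:13158911-13159190, plus strand, promoter: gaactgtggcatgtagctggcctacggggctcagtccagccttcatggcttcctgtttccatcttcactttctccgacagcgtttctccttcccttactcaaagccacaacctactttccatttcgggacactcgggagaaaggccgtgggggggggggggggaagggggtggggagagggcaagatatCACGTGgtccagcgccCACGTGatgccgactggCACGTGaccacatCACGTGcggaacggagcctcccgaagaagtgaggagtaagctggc
Lamp2, chrX:38456431-38456710, minus strand, promoter: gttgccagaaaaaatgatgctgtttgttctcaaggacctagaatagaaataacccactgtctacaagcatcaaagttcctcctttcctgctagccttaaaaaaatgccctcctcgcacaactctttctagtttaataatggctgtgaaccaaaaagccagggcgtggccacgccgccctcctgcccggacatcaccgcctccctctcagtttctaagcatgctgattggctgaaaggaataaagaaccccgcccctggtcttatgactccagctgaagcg
Wipi1, chr11:109611360-109611639, minus strand, promoter: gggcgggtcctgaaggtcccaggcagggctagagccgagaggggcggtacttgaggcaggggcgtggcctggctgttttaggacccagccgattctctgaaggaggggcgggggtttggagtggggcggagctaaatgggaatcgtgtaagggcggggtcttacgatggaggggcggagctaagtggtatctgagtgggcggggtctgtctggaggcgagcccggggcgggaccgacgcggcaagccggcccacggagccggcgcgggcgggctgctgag
Atg14, chr14:47568405-47568684, minus strand, promoter: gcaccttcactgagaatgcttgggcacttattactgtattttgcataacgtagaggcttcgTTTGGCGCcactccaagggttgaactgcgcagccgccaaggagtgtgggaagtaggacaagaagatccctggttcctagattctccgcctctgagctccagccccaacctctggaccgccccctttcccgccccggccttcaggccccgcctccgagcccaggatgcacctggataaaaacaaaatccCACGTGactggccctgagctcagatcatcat
The capitals mark CACGTG, the palindromic E-box that also forms the core of the GTCACGTG element known to be bound by TFEB, the regulator of lysosomal and autophagy genes, and TTTGGCGC, an E2F-type motif, searched on both strands. CACGTG occurred in the windows of 5 members (Atg14, Atg3, Atg5, Atg7 and Lamp1) and in 7.15% of all 32851 windows of that length. GTCACGTG, which contains CACGTG, occurred in 4 members (Atg14, Atg3, Atg7 and Lamp1) and in 2.25% of all windows. The Lamp1 window held 4 copies of CACGTG, starting 61, 45, 28 and 15 bases before the start site, and 8 of the 32851 windows held at least 4. TTTGGCGC occurred in Atg14 and Atg7 and in 0.514% of all windows, and a second E2F-type motif, TTTCGCGC, in 0 members and in 0.323% of all windows. Lamp2 and Wipi1 held none of these letters in their windows. The printed windows of Wipi1 and Atg14, both on the minus strand, lie inside the genes of the GENCODE annotation, which begin at 109611967 and 47570649. For these genes the RefSeq and GENCODE starts differ, and the matches refer to the RefSeq start. A match is a run of letters and not evidence of binding.

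Summed over the 38 genes without TMM scaling, autophagy RNA was most abundant in cortical epithelium and least abundant in Aire-expressing medullary epithelium. The sum, in CPM without TMM scaling, was 3480 in library 1 (95% exact Poisson interval 3411 to 3549, counting error only) and 3088 in library 2 (2971 to 3208) for the cortical class. It was 2935 and 2940 in fibroblasts, 2789 and 2890 in mimetic cells, 2542 and 2742 in Ccl21a-high cells and 2185 and 2519 in endothelium. Aire-expressing cells had 2142 (2099 to 2187) and 2087 (2014 to 2163). Both cortical values lay above every other class and the Aire-expressing class was last in both libraries, although in library 1 it overlapped with endothelium (2050.2 to 2326) within counting error, while the fibroblast values, 2937 ± 4.08 (SD, n = 2), lay between those of the cortical and Ccl21a-high classes. Cortical over medullary (the mean of the Ccl21a-high and Aire-expressing classes) the ratio was 1.38 ± 0.146 (SD, n = 2), and without the cortical cells at the Aire-list threshold it was 1.64. Aire-expressing over Ccl21a-high the ratio was 0.802 ± 0.0577 (SD, n = 2), and epithelium over fibroblasts 0.926 ± 0.0101 (SD, n = 2). The cortical lead over fibroblasts depended on the scale. The TMM factors, by which CPM is divided, were 1.07 for both cortical sums and 0.874 and 0.927 for the fibroblast sums. With these factors the fibroblast sum ranks above the cortical sum in both libraries.

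**Figure D1:**
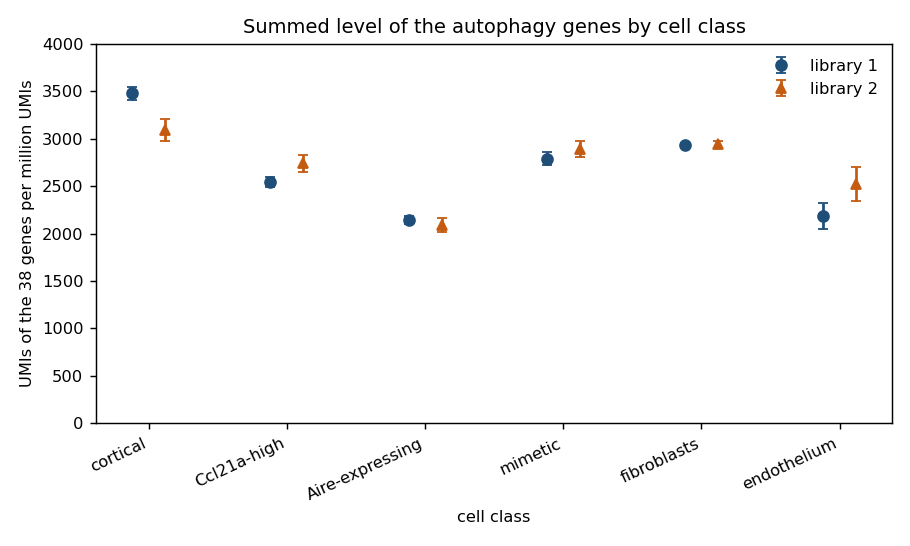
CPM of the 38 autophagy genes together (vertical axis, linear, from 0) in 6 cell classes, with library 1 as circles and library 2 as triangles; bars are 95% exact Poisson intervals that cover counting error only. On this scale, without TMM, both cortical points, 3480 and 3088, lie above all others. The Aire-expressing points, 2142 and 2087, are the lowest in their libraries.

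A few genes carried much of the sum. The 4 members with most UMIs took 57.8% and 55.6% of all member UMIs in the cortical class and 44.6% and 43.7% in the Aire-expressing class. Lamp2 alone made up 24.8% and 19.9% of the cortical sum, and Map1lc3a 20.5% and 19.6% of the Ccl21a-high sum. Without Lamp1, Lamp2 and Map1lc3a the sum was 2133 and 1975 CPM in cortical cells and 2139 and 2089 in mimetic cells. These 2 classes thus overlapped at the top, likewise without TMM scaling. The same reduced sum was 1557 and 1538 in Aire-expressing cells and 1495 and 1636 in Ccl21a-high cells, which also overlapped.

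By gene, the class with the highest mean was endothelium for 11 members, fibroblasts for 10, mimetic cells for 8, cortical cells for 4, Ccl21a-high cells for 3 and Aire-expressing cells for 2. Endothelium had the fewest UMIs, and its summed level exceeded only that of Aire-expressing cells. Several of its leads rested on few UMIs in libraries 1 and 2, such as 6 and 10 for Atg2a, 4 and 9 for Atg2b, 13 and 8 for Atg16l1 and 10 and 7 for Atg16l2. For 16 of the 38 both values of the highest class lay above all 10 values of the other classes; for the rest the leading class and its neighbours overlapped. These 16 included Lamp2 and Map1lc3b in cortical cells, Map1lc3a and Ulk1 in Ccl21a-high cells, Wipi1 and Atg4a in Aire-expressing cells, Atg3, Atg5 and Gabarapl2 in mimetic cells, Lamp1, Atg9a, Pik3r4 and Tfeb in fibroblasts, and Uvrag, Atg16l1 and Atg16l2 in endothelium. The means of the highest and the lowest class differed 7.70-fold for Map1lc3a and 5.30-fold for Wipi1, and 1.33-fold for Becn1, the beclin subunit of the lipid kinase complex.

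**Figure D2:**
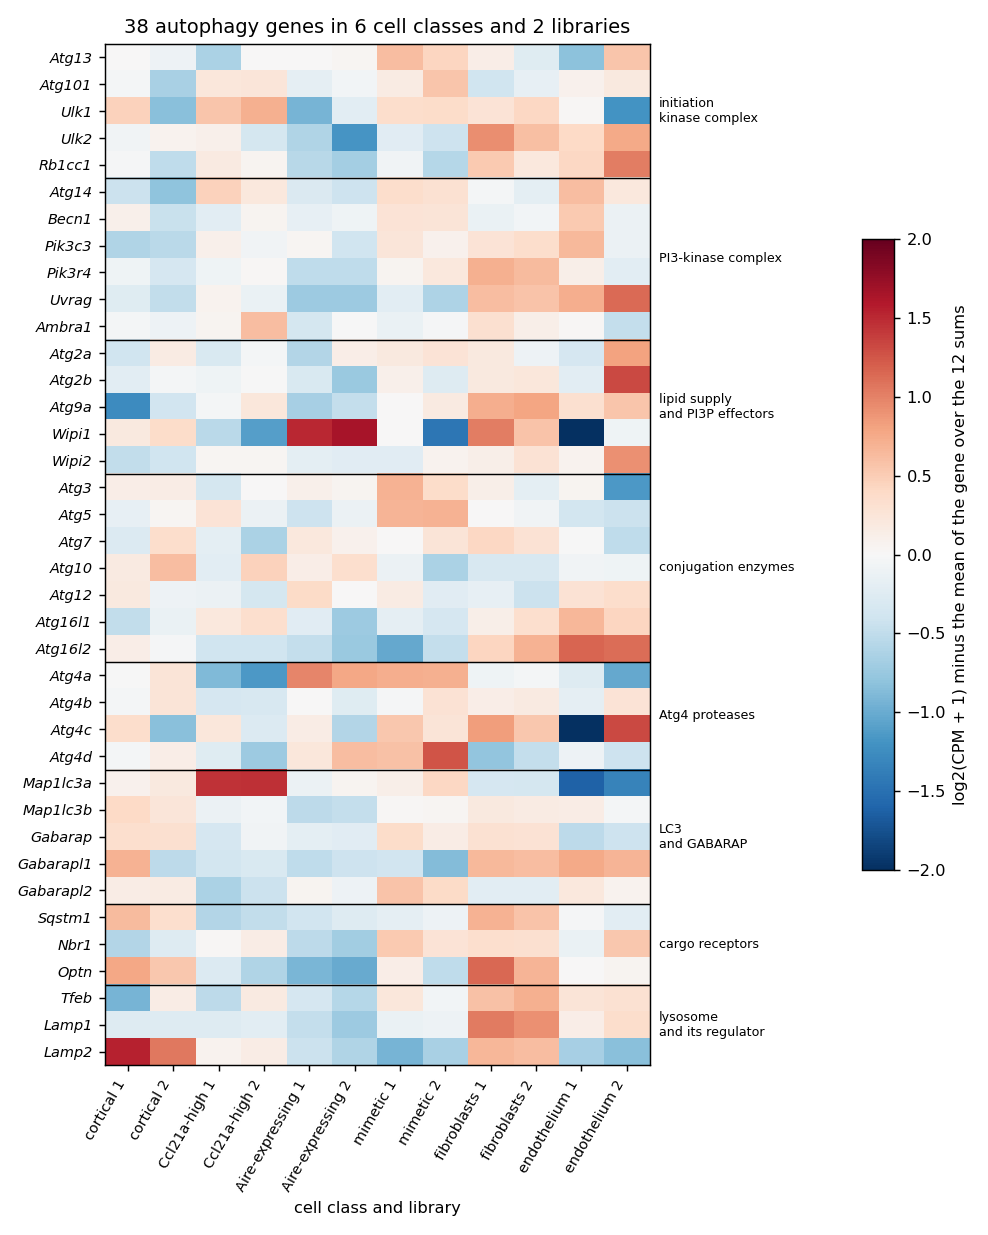
Each row is 1 of the 38 genes, grouped by role, and each column 1 cell class in 1 library; colour is log2(CPM + 1) minus the gene's mean over the 12 sums, red above and blue below. Lamp2 is red in both cortical columns, Map1lc3a in both Ccl21a-high columns, Wipi1 in both Aire-expressing columns and Lamp1 in both fibroblast columns.

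Cortical epithelium, which guides the positive selection of thymocytes, was set against the mean of the Ccl21a-high and Aire-expressing medullary classes. Of the 38 members 5 were higher (7.09% of all tested genes were called higher) and 1 was lower (3.54% of all), with a median log2 fold change of 0.08 against 0.03 over all genes. The higher genes were a lysosomal membrane protein, 2 cargo receptors and 2 genes of the LC3 and GABARAP family. None of the 5 members of the initiation kinase complex, the 6 of the lipid kinase complex, the 7 conjugation genes or the 4 Atg4 proteases was called. These groups are small and only 7.09% and 3.54% of all genes were called, so an absence of calls sets no role apart. Several of these genes were sparse, such as Ulk1 and Atg14 with 8 and 10 UMIs in the cortical cells of library 2. Lamp2, whose isoform LAMP2A is the lysosomal receptor of chaperone-mediated autophagy, stood at 811 CPM in library 1 and 578 in library 2 in cortical cells. It stood at 290 and 308 in Ccl21a-high cells and 205 and 182 in Aire-expressing cells. Both cortical values were above all 10 others, the nearest being fibroblasts at 440.4 and 428, and the log2 fold change was 1.53 (SE 0.146, edgeR adjusted p = 0.000351). Tags at the 3' end of the gene were summed and isoforms were not separated.

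The selective autophagy receptors p62 and optineurin, which link ubiquitin-marked cargo to the growing membrane, were higher too. Sqstm1 stood at 156 and 126 CPM in cortical cells against 65.8 and 70.8 in Ccl21a-high and 76.6 and 83.1 in Aire-expressing cells, a log2 fold change of 0.95 (SE 0.136, edgeR adjusted p = 0.00279). Optn stood at 17.1 and 14.3 CPM in cortical cells against 7.69 and 5.96 in Ccl21a-high and 4.58 and 4.22 in Aire-expressing cells, a log2 fold change of 1.52 (SE 0.277, edgeR adjusted p = 0.00906). Optn was sparse, with 13, 8 and 6 UMIs in the cortical, Ccl21a-high and Aire-expressing cells of library 2. For both genes the cortical and medullary values did not overlap, and fibroblasts lay above cortical cells within each library (163 and 149 CPM for Sqstm1, 22.4 and 15.8 for Optn). The receptor Nbr1 did not pass the test, with 31.3 and 39.5 CPM in cortical cells and a log2 fold change of -0.19 (SE 0.201).

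The LC3 and GABARAP genes, which encode the ubiquitin-like proteins that coat the autophagosome, divided. Map1lc3b, which encodes LC3B, stood at 279 and 249 CPM in cortical cells against 194 and 204 in Ccl21a-high and 146 and 151 in Aire-expressing cells (log2 fold change 0.62, SE 0.115, edgeR adjusted p = 0.00983). Gabarap stood at 549 and 538 CPM against 342 and 414 and 378 and 371 in the same classes (log2 fold change 0.53, SE 0.119, edgeR adjusted p = 0.0215). Map1lc3a, which encodes LC3A, went the other way, with a log2 fold change of -0.57 (SE 0.123, edgeR adjusted p = 0.0185). Its cortical values of 207 and 222 CPM were close to the 179 and 201 of Aire-expressing cells, and the difference came from the Ccl21a-high class at 532 and 534. Gabarapl1 was high in 1 cortical library only, at 80.0 CPM in library 1 and 34.0 in library 2, and was not called.

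Without the cortical cells at the Aire-list threshold, an alternative chosen after seeing the data, Lamp2 stood at 1216 and 1079 CPM (here without TMM scaling) with a log2 fold change of 2.15 (SE 0.131, edgeR adjusted p = 5.51e-06). The corresponding log2 fold changes were 2.13 for Optn, 1.15 for Sqstm1, 0.91 for Map1lc3b, 0.60 for Gabarap and -0.75 for Map1lc3a, and the count of higher members was 7, with Gabarapl1 (1.16, SE 0.253, edgeR adjusted p = 0.00885) and the initiation kinase Ulk2 (0.76, SE 0.230, edgeR adjusted p = 0.0401) added. The thymocyte marker list reached 635 and 473 CPM in cortical cells against 162 and 377 in Ccl21a-high and 104 and 322 in Aire-expressing cells. Leaving out cells with 5 or more blood marker UMIs per 10000, likewise chosen afterwards, gave 6 higher members and 0 lower. Leaving out every cell with any blood marker UMI kept only 12 and 13 cortical cells and left 1 higher member, Lamp2.

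**Figure D3:**
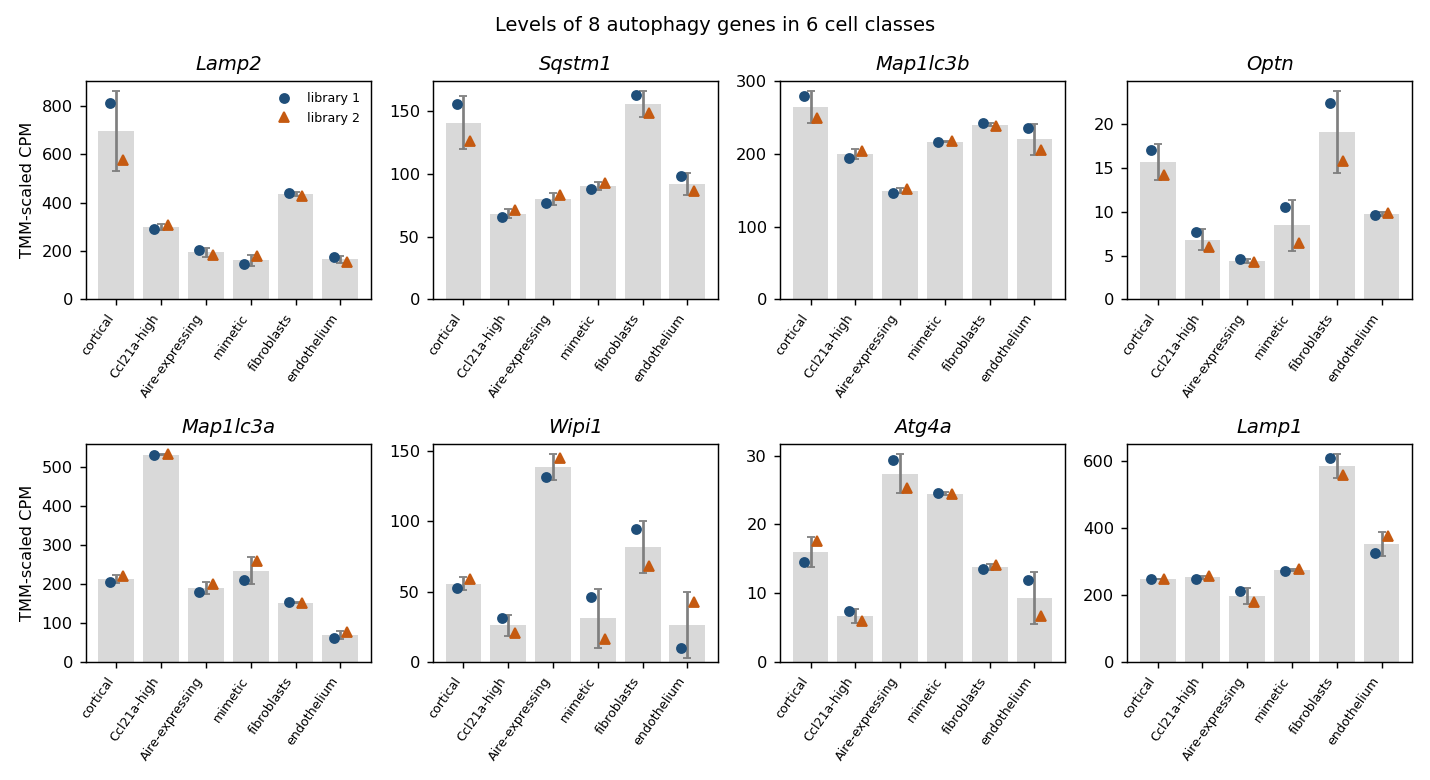
TMM-scaled CPM (vertical axes, linear, from 0) of 8 autophagy genes in 6 cell classes; circles are library 1, triangles library 2, grey columns the mean and bars the SD of the 2 libraries. Lamp2 is highest in cortical cells (811 and 578), Map1lc3a in Ccl21a-high cells (532 and 534), Wipi1 in Aire-expressing cells (132 and 145) and Lamp1 in fibroblasts (610.0 and 559).

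Other genes of the pathway were read from lists that hold no member, beside 7.09% higher and 3.54% lower over all genes. Of 34 lysosomal genes 13 were higher in the cortex and 0 lower, of 29 genes of nutrient sensing by mTORC1 and AMPK 5 were higher and 1 lower, and of 30 other receptor, membrane-supply and fusion genes 6 were higher and 0 lower, so that 21, 23 and 24 genes were not called. The thiol protease cathepsin L (Ctsl), known to generate the peptides of cortical MHC class II, stood at 9518 and 5636 CPM in cortical cells against 1247 and 1582 in Ccl21a-high and 121 and 170.4 in Aire-expressing cells (log2 fold change 4.05, SE 0.214, edgeR adjusted p = 1.25e-05). Mitf, a relative of TFEB, had a log2 fold change of 2.77 (SE 0.333), the arginine sensor Castor1 2.77 (SE 0.273), the endoplasmic reticulum receptor Calcoco1 2.27 (SE 0.206) and the mitophagy receptors Bnip3 and Bnip3l 1.99 (SE 0.201) and 1.40 (SE 0.169). Bnip3 stood at 94.5 and 114 CPM in cortical cells, 79.5 and 61.2 in Aire-expressing and 8.83 and 11.2 in Ccl21a-high cells, and its call was lost after thinning and with cluster classes (log2 fold change down to 0.59, adjusted p up to 0.221). Calcoco1 lost its call without any blood marker UMI. Ddit4, a stress-induced inhibitor of mTORC1, was lower (log2 fold change -1.42, SE 0.271), with 17.8 and 27.4 CPM in cortical, 23.6 and 33.1 in Aire-expressing and 136 and 96.9 in Ccl21a-high cells. The cortical and Aire-expressing values of Ddit4 overlapped, and its call was lost after thinning and without any blood marker UMI (adjusted p up to 0.360). The dissociation stress marker list stood at 2970 and 1962 CPM in cortical, 2240 and 2426 in Aire-expressing and 8342 and 8166 in Ccl21a-high cells, and its part in the cortical differences was not tested. Tfeb itself was sparse in cortical cells, at 11 and 8 UMIs, and was not called (log2 fold change -0.19, SE 0.439).

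Within the medulla, Aire-expressing cells, which display tissue-restricted self antigens, were set against the Ccl21a-high cells, which attract maturing thymocytes. Of the 38 members 3 were higher (20.6% of all genes were called higher) and 9 lower (17.1% of all), with a median log2 fold change of -0.23 against 0.01 over all genes. Wipi1, which encodes a protein that binds the lipid mark of the nascent membrane, stood at 132 and 145 CPM in Aire-expressing cells and at 31.3 and 20.9 in Ccl21a-high cells (log2 fold change 2.39, SE 0.438, edgeR adjusted p = 0.00257). Atg4a, a protease that trims and recycles GABARAP proteins, stood at 29.4 and 25.3 CPM against 7.41 and 5.96 (log2 fold change 2.00, SE 0.282, edgeR adjusted p = 0.000617). For both genes the Aire-expressing values lay above those of all other classes. For Atg4a the margin was narrow, since mimetic cells had 24.6 and 24.4 CPM and the gene was not called between mimetic and Aire-expressing cells. Gabarapl2 was higher by a smaller margin, at 145 and 129 CPM against 89.5 and 102 (log2 fold change 0.52, SE 0.150, edgeR adjusted p = 0.0214).

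Map1lc3a was the member with the largest fall in Aire-expressing cells, from 532 and 534 CPM in Ccl21a-high cells to 179 and 201 (log2 fold change -1.49, SE 0.140, edgeR adjusted p = 9.05e-05). The Ccl21a-high class held the highest Map1lc3a values of all 6 classes, and the next were mimetic cells at 209.5 and 259 CPM. The initiation complex had 3 of its 5 members among the lower genes, beside 17.1% of all genes. A group of 5 is too small for this count to set the role apart. Its kinase Ulk1 stood at 8.19 and 14.1 CPM against 24.8 and 27.6 (log2 fold change -1.32, SE 0.416, edgeR adjusted p = 0.0320), its second kinase Ulk2 had a log2 fold change of -0.78 (SE 0.256, edgeR adjusted p = 0.0382) and its scaffold Rb1cc1, also called FIP200, -0.74 (SE 0.232, edgeR adjusted p = 0.0306). The lipid kinase partners Atg14 and Uvrag, which direct it to autophagosomes and to endosomes, had log2 fold changes of -0.73 (SE 0.222) and -0.74 (SE 0.222). Lamp2 (-0.63, SE 0.178), Nbr1 (-0.68, SE 0.220) and Map1lc3b (-0.42, SE 0.136) completed the lower set, with edgeR adjusted p = 0.0204, 0.0339 and 0.0351.

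The 3 genes Wipi1, Atg4a and Map1lc3a kept their calls in every alternative in which they were tested, 10, 8 and 10 in number. The smaller falls did not. DESeq2's size factors moved the median log2 fold change of all genes by 0.16. With them 5 members were higher and 1, Map1lc3a, lower, so Ulk1, Ulk2 and Rb1cc1 were no longer called lower. Over all genes 64.8% of calls were then higher against 54.6% with TMM. Markers of dividing cells stood at 598 and 739 CPM in Aire-expressing and 117 and 171 in Ccl21a-high cells, and without dividing cells 5 members were higher and 2 lower. Ulk2 was not called without the library block. The dissociation stress list stood at 2240 and 2426 CPM in Aire-expressing cells against 8342 and 8166 in Ccl21a-high cells, and its part in the member differences was not tested. Of the related lists, the lysosomal genes moved in both directions (12 higher and 9 lower of 34), with cathepsin Z (Ctsz) higher (log2 fold change 2.96, SE 0.249) and Ctsl lower (-3.29, SE 0.273). Nutrient-sensing genes had 3 higher and 5 lower of 29, and other receptors and fusion genes 5 higher and 3 lower of 30. Among the latter the reticulum receptor Retreg1 was higher (log2 fold change 1.99, SE 0.279), as were Bnip3 (2.88, SE 0.268) and Bnip3l (1.17, SE 0.206); Retreg1 and Bnip3l lost their calls without any blood marker UMI.

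Mimetic cells, medullary epithelium that takes on the programmes of peripheral cell types, were set against the Aire-expressing class. Here 7 of the 38 members were higher (12.7% of all genes were called higher) and 1 was lower (10.7% of all), and the median log2 fold change was 0.45 against 0.02 over all genes. The lower gene was again Wipi1, at 46.0 and 16.2 CPM in mimetic cells against 132 and 145 (log2 fold change -2.15, SE 0.431, edgeR adjusted p = 0.00661), with log2 fold changes of -1.51 and -3.15 by library. The Aire-expressing class serves in this comparison and in the one before, so the 2 share its values. Atg5, the acceptor of the Atg12 conjugate, stood at 65.4 and 66.1 CPM against 30.1 and 37.3 (log2 fold change 0.99, SE 0.204, edgeR adjusted p = 0.00784). Nbr1 stood at 68.2 and 57.4 CPM against 32.5 and 28.9 (log2 fold change 1.02, SE 0.217, edgeR adjusted p = 0.00887). For both genes the classes did not overlap.

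The other 5 higher members differed less. Map1lc3b had a log2 fold change of 0.54 (SE 0.136), Gabarapl2 0.50 (SE 0.146), Lamp1 0.48 (SE 0.141), Gabarap 0.47 (SE 0.140) and Atg14 0.72 (SE 0.222), with edgeR adjusted p = 0.0183, 0.0350, 0.0349, 0.0381 and 0.0426. Without dividing cells 2 members were higher, and under a stricter cell filter 3. Atg14 kept its call in 1 of 8 alternatives and was not called without the library block. Among the related lists 9 lysosomal genes were higher and 4 lower of 34, led by the aspartic protease cathepsin D (Ctsd; log2 fold change 2.69, SE 0.304). Of the nutrient-sensing genes 3 of 29 were higher and 0 lower, led by Sesn3 (2.00, SE 0.250; not called without any blood marker UMI), and of the other receptors and fusion genes 5 of 30 were higher and 3 lower. The dissociation stress list stood at 5064 and 6797 CPM in mimetic against 2240 and 2426 in Aire-expressing cells, and its part was not tested. The erythroid marker list reached 2898 CPM in the mimetic cells of library 2 and 8.38 in library 1, a difference between libraries whose part was not tested.

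The mimetic class was a mixture, and its programmes differed in the members they expressed. Tuft-like cells (60 and 64 cells) had 702 and 642 CPM of Gabarap, 337 and 274 of Gabarapl2, 154 and 132 of Atg3 and 114 and 108 of Atg5, all without TMM scaling. In keratinocyte-like cells (24 and 84 cells) Gabarapl2 stood at 115 and 145 CPM, Atg3 at 98.1 and 117 and Atg5 at 29.2 and 78.9, so tuft-like cells were higher for each of the 3 genes in both libraries. Microfold-like cells (22 and 14 cells) had the least Map1lc3a of these 3 programmes, 75.1 and 45.4 CPM against 280 and 394 in keratinocyte-like and 267 and 238 in tuft-like cells. They also had the most Lamp1, 456 and 636 CPM, against 240 and 276 in tuft-like cells. Programmes were compared by these values alone, without a test, since each rests on few cells per library.

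Fibroblasts, which build the thymic capsule and septa, gave the comparison with the most called members, and also with the most calls over all genes. With the mean of the 4 epithelial classes set against them, 2 of the 38 members were higher in epithelium (23.3% of all genes were called higher) and 14 lower (28.6% of all), with a median log2 fold change of -0.39 against -0.04 over all genes. The role groups are small and 28.6% of all genes were called lower, so counts by role set no role apart here. All 3 genes of the lysosomal group were lower in epithelium. Lamp1 stood at 610.0 and 559 CPM in fibroblasts and between 179 and 277 in the 8 epithelial sums (log2 fold change -1.28, SE 0.101, edgeR adjusted p = 4.12e-06). Tfeb stood at 12.3 and 13.5 CPM in fibroblasts and between 3.62 and 9.29 in epithelium (log2 fold change -0.99, SE 0.292, edgeR adjusted p = 0.0171). Lamp2 was lower on average (-0.61, SE 0.131, edgeR adjusted p = 0.00315), although cortical cells alone lay above fibroblasts.

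All 3 cargo receptors were lower in epithelium as well, Optn with a log2 fold change of -1.27 (SE 0.203), Sqstm1 with -0.77 (SE 0.114) and Nbr1 with -0.47 (SE 0.153), at edgeR adjusted p = 0.000515, 0.000315 and 0.0251. Upstream, the lower genes were Ulk2 (-1.13, SE 0.162) and Rb1cc1 (-0.64, SE 0.166) of the initiation complex and the regulatory subunit Pik3r4 (-0.87, SE 0.165) and the catalytic subunit Pik3c3 (-0.48, SE 0.178) of the lipid kinase complex. Uvrag of the same complex stood at 53.1 and 51.6 CPM in fibroblasts and between 20.2 and 35.9 in epithelium (edgeR adjusted p = 0.000294). The remaining lower genes were Atg9a, the transmembrane protein of the seed vesicles (-1.15, SE 0.195), Atg16l2 (-1.06, SE 0.227) and Gabarapl1 (-0.95, SE 0.200). Among these upstream genes Pik3c3 had the weakest support (edgeR adjusted p = 0.0433), and it was not called without the library block. The 2 genes higher in epithelium were Map1lc3a (0.80, SE 0.113, edgeR adjusted p = 0.000222) and the Atg4 protease gene Atg4d (0.94, SE 0.224, edgeR adjusted p = 0.00557). Atg4d stood at 9.97 and 12.6 CPM in fibroblasts and reached 27.5 and 44.7 in mimetic cells, but overlapped with fibroblasts in Ccl21a-high cells at 15.1 and 10.4.

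DESeq2's size factors moved the median log2 fold change of all genes by 0.20 in this comparison. They gave 5 higher and 10 lower members, and over all genes 59.8% of calls were higher against 44.9% with TMM. The lysosomal list was also mostly lower in epithelium, with 19 lower and 4 higher of 34. Among them were the acid lipase Lipa (-2.64, SE 0.144), Mitf (-3.02, SE 0.225), the lysosomal hydrolase Hexa (-2.63, SE 0.156) and the cysteine protease cathepsin B (Ctsb; -2.21, SE 0.130). Nutrient-sensing genes had 7 lower and 2 higher of 29, with the mTOR inhibitor Deptor at -2.04 (SE 0.179), and the other receptors and fusion genes 9 lower and 5 higher of 30. In that list the reticulum receptor Retreg1 was higher in epithelium (log2 fold change 3.73, SE 0.272), at 7.98 and 8.54 CPM in fibroblasts against 253 and 211 in Aire-expressing cells. The dissociation stress list stood at 7801 and 7857 CPM in fibroblasts, 8342 and 8166 in Ccl21a-high, 5064 and 6797 in mimetic, 2970 and 1962 in cortical and 2240 and 2426 in Aire-expressing cells, and its part in the fibroblast comparison was not tested.

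**Figure D4:**
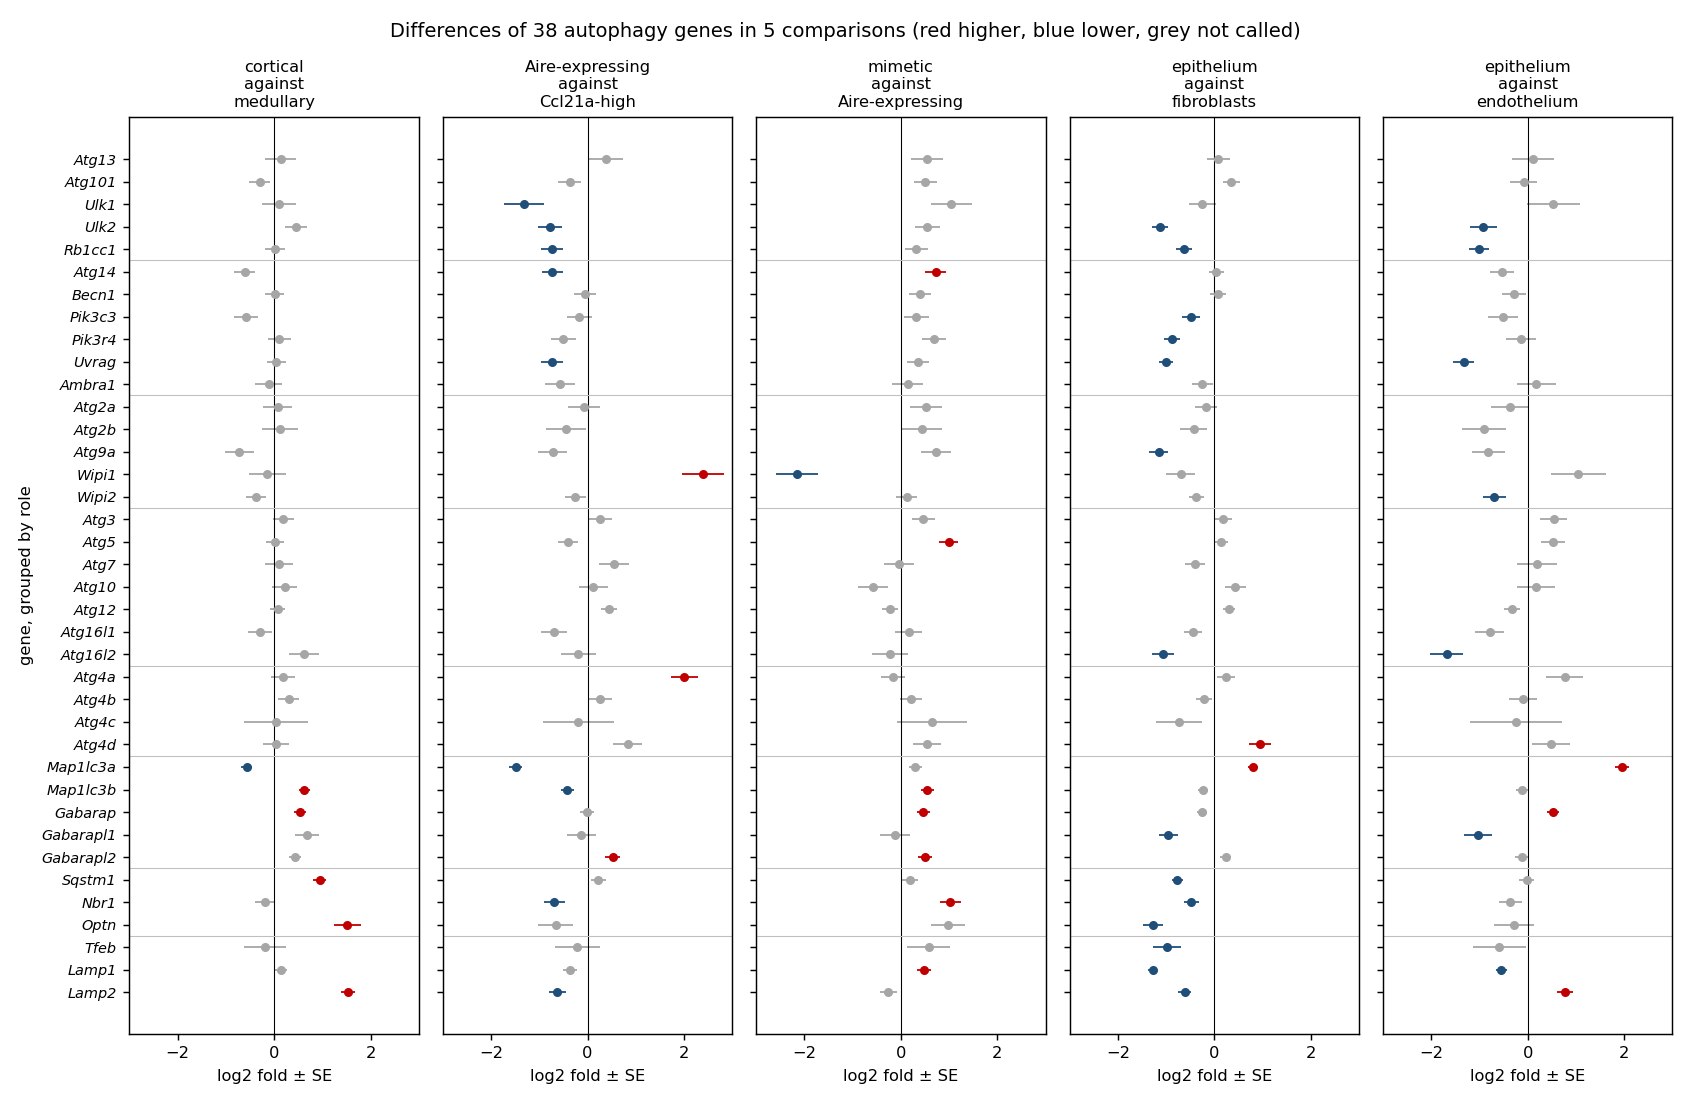
log2 fold change ± SE of the 38 autophagy genes (rows, grouped by role) in 5 comparisons from the edgeR fit; red points were called higher, blue lower and grey not called at an adjusted p of 0.05. The panel of epithelium against fibroblasts has most blue points, 14, and the cortical panel has 5 red points and 1 blue. Over all genes the fibroblast comparison also had the largest share called lower, 28.6%.

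Against endothelium, the lining of the thymic vessels, 3 of the 38 members were higher in epithelium (13.2% of all genes were called higher) and 7 lower (17.5% of all), with a median log2 fold change of -0.19 against 0.14 over all genes. The endothelial sums were the smallest, with 981 and 761 member UMIs. Map1lc3a had the largest difference, at 62.3 and 76.0 CPM in endothelium and between 179 and 534 in the 8 epithelial sums (log2 fold change 1.96, SE 0.152, edgeR adjusted p = 8.98e-06). Lamp2 (0.78, SE 0.167, edgeR adjusted p = 0.00574) and Gabarap (0.52, SE 0.124, edgeR adjusted p = 0.00993) were also higher in epithelium. Mimetic cells, at 146 and 177 CPM of Lamp2, overlapped with the endothelial 175 and 155.

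The lower genes were led by Atg16l2, a relative of the conjugation scaffold Atg16l1, at 24.0 and 23.1 CPM in endothelium and between 4.44 and 11.2 in epithelium (log2 fold change -1.68, SE 0.349, edgeR adjusted p = 0.00486). Its endothelial values rested on only 10 and 7 UMIs. Uvrag stood at 57.5 and 76.0 CPM in endothelium against 20.2 to 35.9 in epithelium (log2 fold change -1.33, SE 0.212, edgeR adjusted p = 0.00106). Rb1cc1 differed more in library 2, with log2 fold changes of -0.54 and -1.45 by library and -1.01 in the fit (SE 0.201, edgeR adjusted p = 0.00382). Gabarapl1 (-1.03, SE 0.283), Ulk2 (-0.92, SE 0.271), Wipi2 (-0.69, SE 0.229) and Lamp1 (-0.54, SE 0.117) made up the rest, with edgeR adjusted p = 0.0202, 0.0276, 0.0458 and 0.00586. DESeq2's size factors moved the median over all genes by 0.14 and gave 3 higher and 5 lower members. The dissociation stress list stood at 9514 and 10471 CPM in endothelium, above every epithelial sum, and its part was not tested. Markers of mural cells stood at 189 CPM in the endothelium of library 1 and 2582 in library 2. Without the endothelial cells at the mural-list threshold, 1 and 3 cells, an alternative also chosen after seeing the data, 3 members were higher and 5 lower, and Ulk2 and Wipi2 were not called. In the related lists 8 lysosomal genes were higher and 9 lower of 34, 4 nutrient-sensing genes higher and 4 lower of 29, and 4 of the other receptors and fusion genes higher and 2 lower of 30.

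Among the conjugation genes Atg3, Atg5, Atg7, Atg10, Atg12 and Atg16l1 the calls over all 5 comparisons were limited to Atg5 in mimetic cells. A further conjugation gene, Atg16l2, was called lower in epithelium against fibroblasts and against endothelium. Over all genes, the share called higher or lower in a comparison ran from 3.54% to 28.6%. Atg7, the activating enzyme of both conjugation systems, had between 8.95 and 19.7 CPM in the 12 sums, and Atg12, the conjugated modifier, between 41.8 and 73.7. Atg4c was the sparsest, with 0 UMIs in the endothelium of library 1, 4 in library 2 and from 2 to 22 in the epithelial sums of both, and it was called in no comparison (0 of 5 edgeR tests, all 5 with unadjusted p over 0.05). Of the lipid kinase complex, Becn1 stood between 34.0 and 67.1 CPM and was called in no comparison (0 of 5 edgeR tests, all 5 also with unadjusted p over 0.05). In GENCODE coordinates on GRCm38, Map1lc3a lies at chr2:155276297-155278073 (plus strand), Optn at chr2:5020642-5064051 (minus), Sqstm1 at chr11:50199366-50210827 (minus), Atg4a at chrX:140956907-141164270 (plus), Lamp2 at chrX:38401357-38456454 (minus), Lamp1 at chr8:13159161-13175338 (plus) and Wipi1 at chr11:109573331-109611967 (minus). Opposite-strand genes overlap 14 members (Lamp1, Sqstm1, Map1lc3b, Optn, Uvrag, Rb1cc1, Gabarapl1, Atg14, Atg9a, Atg4d, Atg16l2, Atg2b, Atg4b and Becn1) in that annotation. Whether strand was used in counting is not given in the sources used here, so reads of the 2 strands may be mixed for these genes.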

How the data were processed

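Single-cell RNA of CD45- thymic stroma from 2 libraries of the genotype E2F_M11 was analysed from the deposited UMI count matrices. Per the submitters' processing notes the reads were processed with Cell Ranger 7 and Seurat 4 on mm10, while the deposited file headers name Cell Ranger 6.0.0; the gene annotation and whether strand was used are not stated there. The cell filter required 500 genes and 1000 UMIs and allowed up to 10% mitochondrial UMIs. Cells were gated on marker UMIs per 10000 (epithelial 10, fibroblast 50, endothelial 20, cortical 20, mimetic 15, Aire list 5, Ccl21a list 50), with limits on markers of other lineages; these thresholds were set after seeing the data. No doublet caller was run, and cells over the limit of a second lineage were left out where a limit was set. Epithelium had no mural limit, and its blood markers only had to lie below its epithelial markers. Endothelium had no mural or mesothelial limit, and no class had an erythroid limit. Raw counts were summed per class and library, so deep cells weigh more.

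edgeR 4.0.16 (quasi-likelihood, TMM, filterByExpr, library as a block, 5 residual degrees of freedom) tested 14535 genes in 5 comparisons. The numbers pair the sums because all classes of a library come from 1 suspension; deviations of same-library sums correlated with a median of 0.0642 and a minimum of 0.0107. Alternatives were DESeq2 1.42.0, no low-count filter, no block, looser and stricter cell filters, cells with blood UMIs or dividing cells left out, thinning to 1000 UMIs, Leiden clusters and each library alone. Members, lists and tests were chosen with earlier results of these data known. All members may be named; from each related list up to 4 called genes with the largest change per comparison. A gene that this rule names is not reported here. Promoters come from RefSeq (GRCm38.p6).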

Additional observations from a re-analysis of the deposited data

How the results depend on the processing

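The 52 called member differences kept their direction in each library alone, where no test is possible. Of 520 values from alternatives with a test 397 kept direction and call, 121 lost the call and 2 reversed. All 52 calls stood under a looser cell filter, 49 without a filter on low counts, 49 without the library block, 37 with DESeq2 and 33 under a stricter cell filter. Without the replicate block the counts higher and lower were 5 and 1 (cortical), 3 and 8 (Aire-expressing), 6 and 1 (mimetic), 2 and 13 (fibroblasts) and 3 and 7 (endothelium); Ulk2, Atg14 and Pik3c3 lost 1 call each. DESeq2 gave 5 higher and 1 lower in Aire-expressing against Ccl21a-high cells and 5 higher against fibroblasts. The stricter filter gave 3 higher and 0 lower in cortical cells, 3 lower in Aire-expressing cells, 3 higher in mimetic cells and 3 lower against endothelium. Without cells holding any blood marker UMI (7 to 421 cells a class, 14 members tested) the counts were 1 and 0, 1 and 1, 0 higher in mimetic cells, 0 and 2 against fibroblasts and 0 lower against endothelium, and Map1lc3b in mimetic cells (-0.30) and Lamp1 against endothelium (0.58) reversed; the cause was not tested beyond the fewer cells and genes. Without cells at 5 or more blood marker UMIs per 10000 there were 0 lower in cortical cells and 4 lower against endothelium. Without dividing cells there were 5 and 2 in Aire-expressing cells and 2 higher in mimetic cells. Thinning to 1000 UMIs a cell (14 members tested) gave 2 and 0, 1 and 1, 0 and 0, 1 and 6, and 1 lower against endothelium. Cluster classes gave 1 higher against fibroblasts and 4 lower against endothelium, and leaving out cortical cells at the Aire-list threshold gave 1 higher against fibroblasts. The summed cortical over medullary ratio was 1.28 to 1.49 by library, 1.80 without any blood marker UMI, 1.64 without Aire-threshold cortical cells and 1.60 in clusters. Aire-expressing over Ccl21a-high was 0.761 to 0.843 by library and 0.865 without dividing cells. Epithelium over fibroblasts was 0.919 to 0.933 by library, 0.979 without any blood marker UMI, 0.911 at 5 or more per 10000, 0.978 without Aire-threshold cortical cells, 0.944 without dividing cells, 0.890 thinned and 1.00 in clusters. The settings on 5 blood marker UMIs, Aire-threshold cortical cells and mural cells were chosen after seeing the data. Depth limits the endothelium most, with 449010 and 302085 UMIs.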
